A study of Mus musculus with 16 samples.

Results

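Myeloid cells (spelled Myloid in the labels) of mouse bone marrow were set against Erythroid cells in small non-coding RNA libraries. The comparison rests on the 4 libraries that carry these cell type labels, 2 per population, out of 16 libraries in the series. All libraries came from wild-type mice, and the labels give neither a treatment of the mice nor an age. Cells were stained for lineage and progenitor surface proteins and sorted by flow cytometry, but the gates that define the mature populations are not given in the labels. The other 12 libraries hold the common lymphoid (CLP), common myeloid (CMP), granulocyte-monocyte (GMP) and megakaryocyte-erythroid (MEP) progenitors and mature B and T cells, again 2 each. They enter the fit to estimate the spread, and GMP against MEP, the progenitors of these branches, serves as a second comparison. Whether a population's 2 libraries are from separate mice is not stated, and the p-values below therefore rest on variation between libraries that may be purely technical.

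Small nucleolar RNAs (snoRNAs) are stable RNAs that mostly work on ribosomal RNA. C/D box snoRNAs guide 2'-O-methylation and H/ACA box snoRNAs guide pseudouridylation, and a few members of each class are needed to cut the ribosomal RNA precursor rather than to modify it. Most mouse snoRNAs are cut out of introns of host genes, many of which encode ribosomal proteins. MicroRNAs (miRNAs) are shorter RNAs that repress messenger RNAs through a seed sequence, and several are known as lineage markers in blood: the Mir144 and Mir451a locus in red cell precursors, and Mir223 in granulocytes and monocytes.

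The deposited values are raw counts per annotated interval. Total counts were 15590104 and 35775890 in the Myeloid libraries, against 17193622 and 19974948 in the Erythroid libraries. Values below are in CPM (the count over the library size in units of 1e6, with library sizes scaled by the trimmed mean of M values, TMM), and a fold change is the log2 ratio of Myeloid over Erythroid from edgeR, given with its standard error (SE). A feature was called when its Benjamini-Hochberg adjusted p in edgeR's quasi-likelihood test was under 0.05 over the 749 of 1885 intervals with enough counts. Of these, 142 were called (19.0%), 60 higher in Myeloid cells (8.01%) and 82 lower (10.9%), and 253 had an unadjusted p under 0.05. The 2 libraries of a side did not overlap the other side's with Myeloid above in 257 features (34.3%) and with Erythroid above in 213 (28.4%), and 2 libraries against 2 cannot give an exact two-sided permutation p below 0.333. These sums are RNA from bulk cells, so fewer cells of a type and less RNA per cell cannot be told apart.

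The libraries of the pairs did not agree equally well. Over 157 features averaging at least 100 CPM, the SD of the log2 ratio between the libraries was 0.0656 in the Myeloid pair and 0.501 in the Erythroid pair, while the median absolute deviation was 0.0634 and 0.0835. The gap lay in the miRNAs: over 75 miRNAs averaging at least 10 CPM, the median log2 ratio of library 1 to library 2 was -0.10 in the Myeloid pair and -1.28 in the Erythroid pair. GMP (-1.08) and MEP (1.27) showed gaps of like size. By rank correlation over the tested features, each Myeloid library was closest to the other, whereas Erythroid library 1 was closest to a CLP library and Erythroid library 2 to a Myeloid library. What separates the Erythroid pair was not tested.

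C/D snoRNAs took 87.5% and 87.2% of the counts in the Myeloid libraries and 87.6% and 87.0% in the Erythroid libraries. The share of miRNAs was 3.09% and 3.21% in Myeloid cells, against 0.758% and 1.96% in Erythroid cells. The feature named 45S ribosomal RNA precursor took 6.86% and 7.14% of Myeloid counts, against 9.09% and 8.65% of Erythroid counts. Small nuclear RNAs (snRNAs), most of which are RNA parts of the spliceosome, took 0.491% and 0.489% in Myeloid cells, against 0.368% and 0.364% in Erythroid cells. In miRNAs, 45S and snRNAs the libraries of the populations did not overlap. Of 202 tested miRNAs, 19 were higher and 3 lower, with a median log2 fold change of 0.84, against 0.07 over all tested features. The 19 are 9.41% of the miRNAs, close to the 8.01% of all features called higher. The count was 24 higher and 48 lower of 160 C/D snoRNAs (median -0.06), 4 and 7 of 105 H/ACA snoRNAs (median 0.02), and 11 and 3 of 118 snRNA intervals (9.32% higher, median -0.08). Scaling by library totals in place of TMM shifted all log2 fold changes by 0.21 (median) and turned the split into 132 higher and 51 lower, or 72.1% of calls higher against 42.3% with TMM. With library totals 64 C/D snoRNAs were higher and 28 lower, so the direction of that class depends on the scaling.

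**Figure D1:**
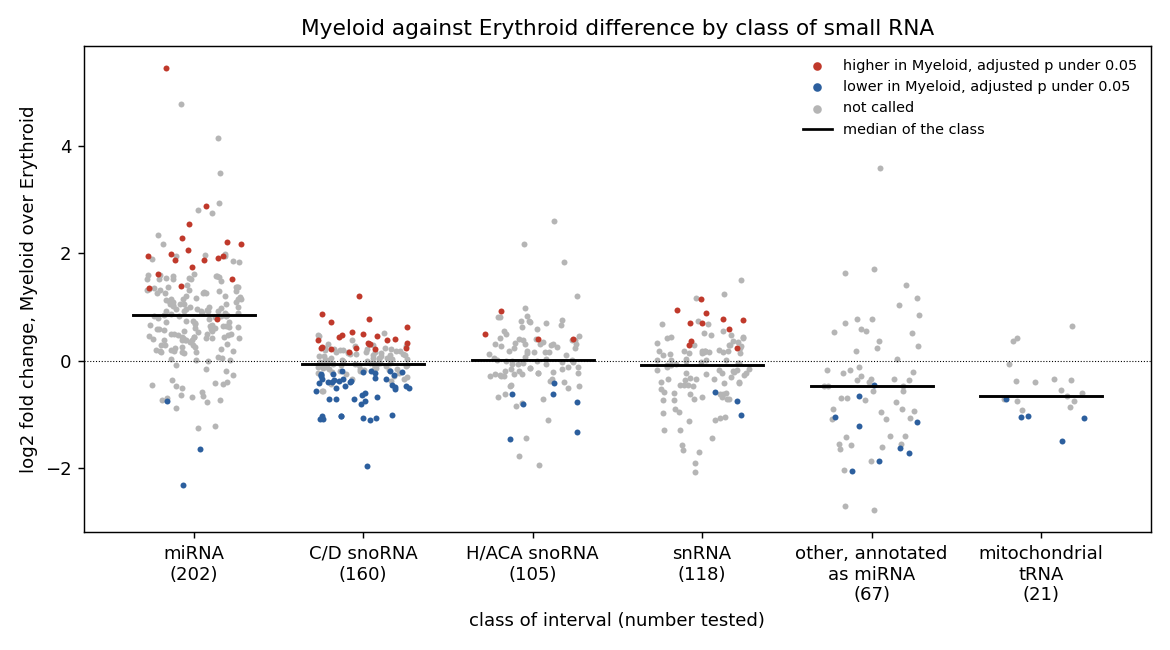
Log2 fold change of Myeloid over Erythroid for each tested interval (y axis), by class of small RNA (x axis, number tested in brackets). Red and blue points passed an adjusted p of 0.05, grey points did not, and the black line is the median of the class, which was 0.84 in miRNAs and -0.06 in C/D snoRNAs.

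The mature sequences below are those of miRNAs whose intervals carry the lineage comparison, from RefSeq on GRCm38.p6, with the seed (bases 2 to 8) in capitals. A mature sequence was listed for 172 of the 202 tested miRNA hairpins; Mir185 and Mir30d lack an entry for the arm of interest and are only named. Intervals span the hairpin, so the counts do not separate the arms, and whether they come from mature miRNAs or longer precursors cannot be told from them. The seed of miR-103-3p is shared with miR-107-3p, and the mature miR-103-3p is the same from both Mir103 hairpins. Among the tested hairpins with a listed sequence, no other shares a seed with miR-144-3p, miR-223-3p, miR-139-5p, miR-542-3p or miR-1839-5p.
miR-451a: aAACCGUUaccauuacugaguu
miR-144-3p: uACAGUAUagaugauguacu
miR-223-3p: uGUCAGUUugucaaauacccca
miR-139-5p: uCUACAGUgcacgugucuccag
miR-103-3p: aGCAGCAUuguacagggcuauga
miR-107-3p: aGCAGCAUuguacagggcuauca
miR-542-3p: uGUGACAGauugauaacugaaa
miR-1839-5p: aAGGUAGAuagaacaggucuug

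Mir451a was the one miRNA of the fixed erythroid list that passed the test, and it was lower in Myeloid cells. The interval, which holds Mir451a and the overlapping Mir451b (chr11:78073170-78073241, GRCm38, plus strand), had 45.1 and 48.8 CPM in the Myeloid libraries, against 114 and 180 CPM in the Erythroid libraries. Both Erythroid libraries lay above both Myeloid libraries. The log2 fold change was -1.64 ± 0.28 (SE; edgeR adjusted p = 0.00223), and it was -1.98 without Erythroid library 1 and -1.29 without Erythroid library 2, both called. Among the 8 populations the Erythroid mean (147 CPM) was second to MEP (152 CPM), a gap within the spread of either pair, and the Myeloid mean was 47.0 CPM, rank 5 of 8. Mir144, which lies just upstream on the same strand, was counted 14 and 56 times in the Myeloid libraries, against 14 and 86 times in the Erythroid libraries. The groups overlapped, and its log2 fold change of -1.21 ± 0.72 did not pass (edgeR adjusted p = 0.268). Mir486, which lies in an intron of Ank1, had 1.68 and 1.99 CPM in Myeloid cells, against 1.33 and 4.41 CPM in Erythroid cells, and did not pass (log2 fold change -0.65, edgeR adjusted p = 0.564). The sign of both rested on Erythroid library 2, without which Mir144 had 0.39 and Mir486 0.46. Of 10 tested members of the erythroid list, none was higher and 1 lower (10%, against 10.9% of all features). The list as a whole did not lean to Erythroid cells: 6 of the 10 fold changes were positive (median 0.52). In 4 members both Myeloid libraries were above both Erythroid libraries, and in 1 the reverse held.

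The myeloid list held 13 tested miRNAs, of which 2 were higher in Myeloid cells (15.4%, against 8.01% of all features) and none was lower. The 2, Mir139 and Mir147, were listed with their high Myeloid values in these data already known, as were Mir22 and Mir340. The share of the list is therefore no independent result. In 12 of the 13 both Myeloid libraries were above both Erythroid libraries, a placement shared by 120 of all 202 miRNAs, by 9 of 10 let-7 hairpins and by 34.3% of all features. Mir139, in an intron of the phosphodiesterase gene Pde2a (chr7:101475376-101475443), had 343 and 382 CPM in the Myeloid libraries, against 50.5 and 142 CPM in the Erythroid libraries. The Myeloid libraries sat together above a wide Erythroid pair, and the log2 fold change was 1.91 ± 0.54 (edgeR adjusted p = 0.0282). Mir147 had 7.37 and 7.86 CPM in Myeloid cells, against 1.09 and 3.00 CPM in Erythroid cells (log2 fold change 1.88 ± 0.46, edgeR adjusted p = 0.0142). Mir223 had 895 and 946 CPM in Myeloid cells, against 297 and 590 CPM in Erythroid cells. The libraries did not overlap and the Myeloid mean was the highest of the 8 populations, but the log2 fold change of 1.05 ± 0.34 missed the threshold (edgeR adjusted p = 0.0520). The result depended on the fit. Mir223 stayed not called in 6 of 16 alternatives, and was called higher with RLE scaling, library totals, DESeq2 and voom, among others. The mean of Mir223 was 921 CPM in Myeloid cells and 443 CPM in Erythroid cells, which ranked 2 of 8. Mir21a, the most counted miRNA of the list, had 10999 and 11599 CPM in Myeloid cells, against 2898 and 7681 CPM in Erythroid cells, and did not pass either (edgeR adjusted p = 0.152). None of 6 tested miRNAs of the lymphoid list and none of 6 of the stem and progenitor list passed in either direction; Mir150, a lymphocyte miRNA, had 36.5 and 40.5 CPM in Myeloid cells, against 8.56 and 29.5 CPM in Erythroid cells. Summed over the 6, the lymphoid miRNAs took 224 and 239 CPM of library totals in Myeloid cells, against 62.0 and 176 CPM in Erythroid cells, and the part of other cell types in the results was not tested.

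Among called features averaging at least 10 CPM, the 7 largest rises were miRNAs. Mir103-1, in an intron of the pantothenate kinase gene Pank3 (chr11:35782396-35782481), had 181 and 188 CPM in Myeloid cells, against 23.6 and 64.7 CPM in Erythroid cells. Mir103-2, in an intron of Pank2 (chr2:131288052-131288137), had 150 and 151 CPM in Myeloid cells, against 26.3 and 51.9 CPM in Erythroid cells. In both hairpins every Myeloid value was above every Erythroid value, and the log2 fold changes were 2.06 ± 0.54 and 1.94 ± 0.49 (edgeR adjusted p = 0.0205 and 0.0174). Mir107, which shares the seed, was counted 36 and 141 times in the Myeloid libraries, against 16 and 45 times in the Erythroid libraries, and did not pass. Mir185 (35.7 and 38.1 CPM in Myeloid cells, against 5.30 and 13.7 CPM in Erythroid cells), Mir30d (1792 and 1940 CPM against 402 and 894 CPM) and Mir1839 (35.0 and 37.7 CPM against 8.92 and 18.6 CPM) rose by log2 fold changes of 1.95, 1.53 and 1.40. None of the 10 tested let-7 hairpins passed, although all 10 fold changes were positive (median 1.05), and 1 of 6 tested Mir30 hairpins did, Mir30d itself.

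The rises depended on which libraries were kept. Without Erythroid library 1, 2 miRNAs were called higher, and without Erythroid library 2, 66 were. Without Myeloid library 1 or 2 there were 3 and 4, where the lone library of a side is assumed to vary like the other populations. All 7 of Mir103-1, Mir103-2, Mir185, Mir30d, Mir1839, Mir147 and Mir542 kept their sign but lost their call without Erythroid library 1 and without either Myeloid library. Without Erythroid library 1 the log2 fold change was 1.47 for Mir103-1, 1.49 for Mir103-2, 1.38 for Mir185 and 1.02 for Mir30d, and it was 0.92 for Mir1839, 1.30 for Mir147 and 1.38 for Mir542. Without Erythroid library 2 it was 2.95 for Mir103-1, 2.50 for Mir103-2, 2.78 for Mir185 and 2.20 for Mir30d, and it was 2.01 for Mir1839, 2.79 for Mir147 and 2.18 for Mir542, all called. Mir139 had a log2 fold change of 1.30 without Erythroid library 1 (edgeR adjusted p = 0.156) and 2.83 without Erythroid library 2 (edgeR adjusted p = 0.0106). When the 202 miRNAs were scaled and fitted on their own, an alternative chosen after seeing the data, 42 were higher and 16 lower. In that fit Mir451a (-2.42), Mir144 (-1.77) and Mir486 (-1.27) were all lower in Myeloid cells, and Mir103-1 (1.41), Mir103-2 (1.22), Mir139 (1.27), Mir185 (1.29) and Mir223 (0.33) were all higher.

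**Figure D2:**
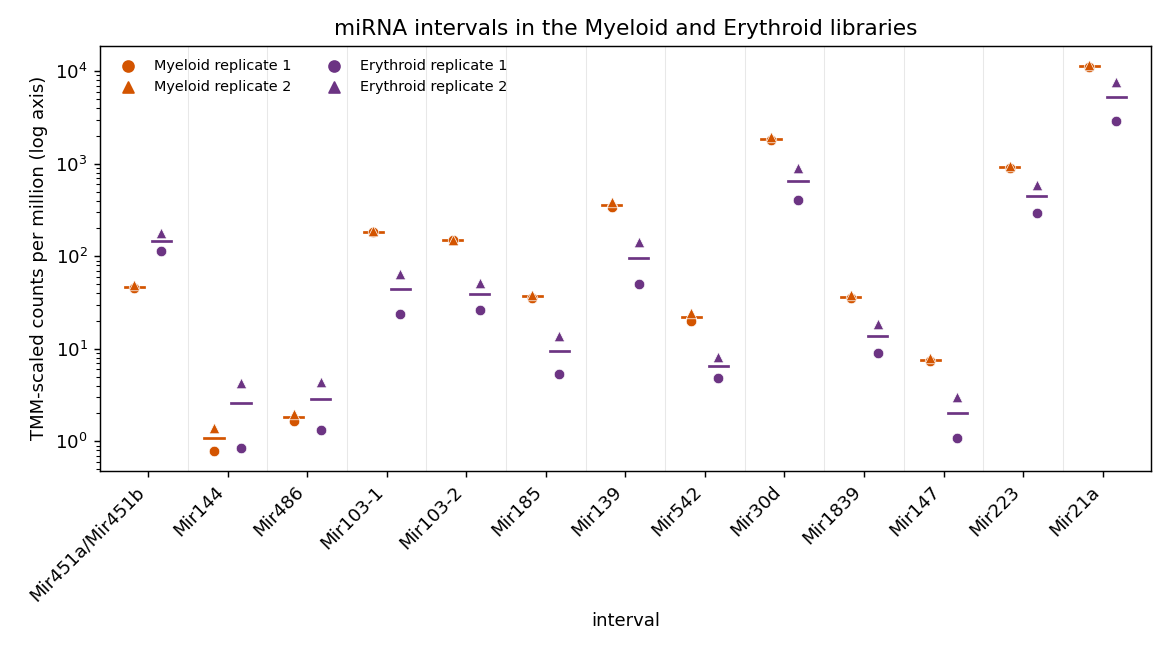
TMM-scaled CPM (log axis) of 13 miRNA intervals in each library: orange for Myeloid, purple for Erythroid, circles for replicate 1, triangles for replicate 2, and bars for the mean of the pair. Mir451a is lower in Myeloid cells, Mir144 and Mir486 overlap, and in the other intervals both Myeloid libraries lie above a wider Erythroid pair.

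A pair of miRNA clusters was looked up after their values were seen. The cluster on the X chromosome (chrX:53047997-53054349) had 7 tested hairpins, and in all 7 both Myeloid libraries were above both Erythroid libraries. That placement was shared by 120 of all 202 tested miRNAs and by 34.3% of all features. Calls higher in Myeloid cells made up 9.41% of the 202 miRNAs and 8.01% of all features. Mir542, Mir351, Mir450-1 and Mir450-2 were called higher; Mir542 had 19.9 and 24.2 CPM in Myeloid cells, against 4.82 and 8.21 CPM in Erythroid cells (log2 fold change 1.75 ± 0.47, edgeR adjusted p = 0.0226). The call of Mir450-2 was lost when any 1 of the 4 libraries was left out. Mir322 and Mir503 of the same cluster did not pass. In introns of Sfmbt2, a Polycomb gene that carries many near-identical hairpins in the mouse, 16 hairpins were tested, 4 were called higher and none lower, with at most 164 counts in a library, and reads of such copies cannot be assigned with certainty.

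Most called snoRNA intervals of ribosomal RNA processing went the other way. U3, U14, U17, U22 and U8 form complexes on the ribosomal RNA precursor that are needed for its cleavage or folding, and U13 was listed with them. Of 20 tested intervals listed for these families, 14 were lower in Myeloid cells (70%) and 1 was higher (5%). Over all features 10.9% were lower and 8.01% higher, and over C/D snoRNAs 30% and 15%. The median log2 fold change of the 20 was -0.76, against 0.07 over all features. The 20 include Rnu73b, listed as U17 by its name only. Summed, the 20 took 4172 and 4043 CPM of library totals in Myeloid cells, against 4147 and 4279 CPM in Erythroid cells. The populations thus overlapped in the sum of the list. Outside U3 the lower calls were Snord14a, Snord14e, Snora73a and Snord22. All 10 U3 intervals were lower. Rnu3b4, the one with the largest fall, had 49.5 and 47.0 CPM in the Myeloid libraries, against 111 and 96.2 CPM in the Erythroid libraries (log2 fold change -1.10 ± 0.18, edgeR adjusted p = 0.00193). The pairs were well apart, and the 8 Rnu3b intervals and 2 Rnu3a intervals ranged from -1.10 to -0.71. These intervals overlap or are near-identical copies, so they are read together: summed, they took 562 and 524 CPM of library totals in Myeloid cells, against 1004 and 861 CPM in Erythroid cells. All 10 were lower without Myeloid library 1 or Erythroid library 2, 9 without Erythroid library 1 and 6 without Myeloid library 2.

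U14 was split within the family. The 4 tested U14 snoRNAs are printed with the C box and the D box in capitals, because their sequences are alike while their values are not. They are GENCODE M21 sequences at chr7:116333171-116333257 (Snord14a, minus strand, an intron of the ribosomal protein gene Rps13) and at chr9:40804748-40804837, chr9:40803583-40803668 and chr9:40803995-40804080 (Snord14e, Snord14c and Snord14d, plus strand, introns of the chaperone gene Hspa8).
Snord14a: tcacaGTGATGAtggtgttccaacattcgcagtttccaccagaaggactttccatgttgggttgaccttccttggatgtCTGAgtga
Snord14e: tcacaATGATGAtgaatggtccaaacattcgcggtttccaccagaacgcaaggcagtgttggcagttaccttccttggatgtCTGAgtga
Snord14c: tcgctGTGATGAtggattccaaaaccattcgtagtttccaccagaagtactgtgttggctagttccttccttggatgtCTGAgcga
Snord14d: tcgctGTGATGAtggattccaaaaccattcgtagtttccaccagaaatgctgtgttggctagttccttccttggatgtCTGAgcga

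Snord14a had 14.3 and 15.1 CPM in Myeloid cells, against 29.2 and 32.5 CPM in Erythroid cells (log2 fold change -1.07 ± 0.16, edgeR adjusted p = 0.00106). Snord14e had 77.3 and 83.3 CPM in Myeloid cells, against 108 and 122 CPM in Erythroid cells (log2 fold change -0.52 ± 0.10, edgeR adjusted p = 0.00580). In both, the lower Erythroid library was above both Myeloid libraries. Snord14c and Snord14d, whose libraries overlapped, had log2 fold changes of 0.01 and -0.02. Snord14c and Snord14d were 97.7% identical over their alignment, so reads may be shared between them, while Snord14a was 82.6% identical to Snord14e and 78.5% to Snord14c. Snord14c, Snord14d and Snord14e lie in introns of the same gene, and 1 of the 3 was called. All 4 share a run of 19 bases that spans the D box. Without Myeloid library 1, 1 of the 4 was lower.

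Among the other processing snoRNAs, Snord22 (U22), within Snhg1, had 85.5 and 81.0 CPM in Myeloid cells, against 148 and 131 CPM in Erythroid cells (log2 fold change -0.75 ± 0.12, edgeR adjusted p = 0.00142). Snora73a (U17), in an intron of Rcc1, was lower as well at 278 and 247 CPM in Myeloid cells, against 531 and 363 CPM in Erythroid cells (log2 fold change -0.77 ± 0.16, edgeR adjusted p = 0.00783). The Erythroid pair was wide here, and the call was lost without Erythroid library 1 (edgeR adjusted p = 0.101) and without Myeloid library 2 (0.0697). The other U17 copy, Snora73b, did not pass. Rnu73b, which the list holds as U17 by its name, did not pass either. It is 71 bases long and lies in Rps3a1 with Snord73a, whereas Snora73a and Snora73b span 205 bases each, so its place in this family is doubtful. Snord118 (U8), which acts in maturation of the large subunit ribosomal RNAs, was the exception in direction: it had 131 and 136 CPM in Myeloid cells, against 96.1 and 95.9 CPM in Erythroid cells (log2 fold change 0.47 ± 0.09, edgeR adjusted p = 0.00300). Its call was lost without Erythroid library 1 (edgeR adjusted p = 0.0655) and without Myeloid library 1 (0.103). Snord13 (U13) did not pass, at 91.8 and 95.4 CPM in Myeloid cells, against 78.8 and 90.9 CPM in Erythroid cells.

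**Figure D3:**
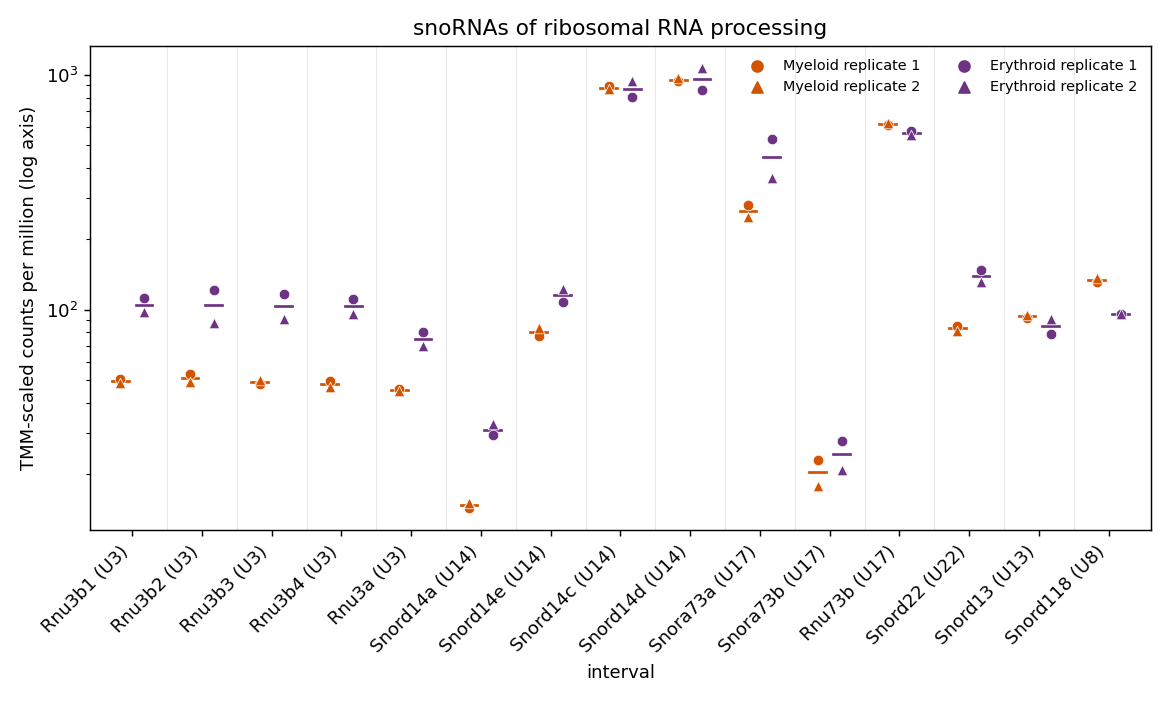
TMM-scaled CPM (log axis) of snoRNAs of ribosomal RNA processing in each library, with 1 interval per U3 gene: orange for Myeloid, purple for Erythroid, circles for replicate 1, triangles for replicate 2, and bars for the mean of the pair. U3, Snord14a, Snord14e, Snora73a and Snord22 lie lower in Myeloid cells, Snord118 lies higher, and Snord14c and Snord14d overlap. Rnu73b is marked U17 by its name only, and lies in Rps3a1 rather than Rcc1.

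The 45S feature, counted on the reference sequence of the ribosomal RNA precursor, was lower in Myeloid cells. Its counts cannot separate the precursor from the mature ribosomal RNAs cut from it or their fragments. The feature had 59714 and 63481 CPM in the Myeloid libraries, against 94266 and 86527 CPM in the Erythroid libraries. The pairs did not overlap, the log2 fold change was -0.55 ± 0.10 (edgeR adjusted p = 0.00417), and the Erythroid mean was second to CMP among the 8 populations. Of 21 tested mitochondrial tRNAs, 5 were lower (23.8%, against 10.9% of all features) and none was higher (median -0.65). Of the 2 mitochondrial ribosomal RNAs, mt-Rnr1 was lower and mt-Rnr2 did not pass (log2 fold change -0.32, edgeR adjusted p = 0.0656). mt-Th, the histidine tRNA and the most counted of the 5, had 63.6 and 59.7 CPM in Myeloid cells, against 103 and 100 CPM in Erythroid cells (log2 fold change -0.72 ± 0.10, edgeR adjusted p = 0.000791). mt-Rnr1, the small mitochondrial ribosomal RNA, had 63.1 and 54.6 CPM in Myeloid cells, against 100.3 and 99.0 CPM in Erythroid cells (log2 fold change -0.76 ± 0.13, edgeR adjusted p = 0.00239). The 5 tRNAs stayed lower when any 1 of the 4 libraries was left out.

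Among called features averaging at least 10 CPM, the largest fall was Snord17, a long C/D snoRNA in an intron of the sorting nexin gene Snx5 (chr2:144265979-144266216, minus strand). It had 409 and 351 CPM in the Myeloid libraries, against 1735 and 1237 CPM in the Erythroid libraries. The pairs did not overlap, and the log2 fold change was -1.97 ± 0.49 (edgeR adjusted p = 0.0158). Across the 8 populations T cells had the highest mean (2670 CPM), Erythroid cells ranked 2 (1486 CPM) and CMP was lowest (155 CPM). Pairs could be wide, with 612 and 1185 CPM in GMP, against 350 and 1302 CPM in MEP. The direction held without any one library, but the call was lost without Erythroid library 1 (edgeR adjusted p = 0.0747), Myeloid library 1 (0.0693) and Myeloid library 2 (0.113). Snord87, in Snhg6, was higher in Myeloid cells, with close agreement within each pair: it had 2359 and 2338 CPM in Myeloid cells, against 1421 and 1426 CPM in Erythroid cells (log2 fold change 0.72 ± 0.07, edgeR adjusted p = 0.000167). The Erythroid mean of Snord87 was the lowest of the 8 populations. Gm24148, in an intron of the nucleolin gene Ncl, had 212 and 200.2 CPM in Myeloid cells, against 108 and 117 CPM in Erythroid cells (log2 fold change 0.88 ± 0.09, edgeR adjusted p = 0.000167), and the interval annotated as mmu-mir-3535 that contains it rose with it. The sequences of these C/D snoRNAs follow, with a match to the C box and the D box in capitals; Snord17 is far longer than the others between its boxes.
Snord17: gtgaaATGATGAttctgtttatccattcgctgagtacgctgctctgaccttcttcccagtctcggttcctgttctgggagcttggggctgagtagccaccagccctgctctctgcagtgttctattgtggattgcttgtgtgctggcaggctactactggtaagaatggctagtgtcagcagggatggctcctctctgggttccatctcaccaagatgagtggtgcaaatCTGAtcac
Snord87: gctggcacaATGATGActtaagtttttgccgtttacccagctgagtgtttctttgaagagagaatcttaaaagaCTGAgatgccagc
Gm24148: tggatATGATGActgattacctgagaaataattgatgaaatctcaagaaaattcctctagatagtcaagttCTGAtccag

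The C/D snoRNAs that hold most of the counts changed less in size. Gm26224, in an intron of the long non-coding RNA gene Gas5, was the most counted feature of all. It had 138815 and 139085 CPM in the Myeloid libraries, against 197441 and 188455 CPM in the Erythroid libraries (log2 fold change -0.47 ± 0.05, edgeR adjusted p = 0.000334), and the Myeloid mean was the lowest of the 8 populations. Among the 10 most counted features, Gm26224, 45S, Gm23301 (-0.32) and Gm25789 (-0.34) were among those lower and Snord2, Snord49a, Snord68, Gm23969 and Gm26202 did not pass.

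Some hosts held snoRNAs that moved in both directions. Of 51 host genes with at least 2 tested snoRNAs, 9 held both a higher and a lower one, 7 only higher, 19 only lower and 16 neither. In Gas5, 1 of 10 snoRNAs was higher (10%) and 4 were lower (40%), and with library totals 4 were higher and 3 lower. Over all tested C/D snoRNAs 15% were higher and 30% lower, against 8.01% and 10.9% of all features. Gm22357 had 1284 and 1295 CPM in Myeloid cells, against 2033 and 2071 CPM in Erythroid cells (log2 fold change -0.67 ± 0.05, edgeR adjusted p = 3.21e-05). Snord47, from a later intron of Gas5, had 5191 and 5234 CPM in Myeloid cells, against 5143 and 5283 CPM in Erythroid cells (edgeR adjusted p = 0.999), and the pairs overlapped. Snord80 is annotated as overlapping intervals: the shorter had 3314 and 3587 CPM in Myeloid cells, against 2348 and 2125 CPM in Erythroid cells (log2 fold change 0.63 ± 0.08, edgeR adjusted p = 0.000558), and the longer did not pass (0.04). No other Gas5 interval than the shorter Snord80 was called higher, and how reads divide between the overlapping intervals was not tested. Gm26224, Gm22357 and the shorter Snord80 interval are printed with their boxes in capitals (plus strand, chr1:161035394-161035473, chr1:161036057-161036139 and chr1:161037604-161037680).
Gm26224: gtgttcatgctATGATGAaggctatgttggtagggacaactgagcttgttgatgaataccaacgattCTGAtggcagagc
Gm22357: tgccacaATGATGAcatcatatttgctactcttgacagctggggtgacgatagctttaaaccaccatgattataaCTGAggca
Snord80, shorter interval: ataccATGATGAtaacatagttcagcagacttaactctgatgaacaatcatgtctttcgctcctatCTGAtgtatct

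Snhg1, another non-coding host, showed the same division, with 2 of 8 tested snoRNAs higher (25%) and 4 lower (50%). Summed, however, the 8 were higher in Myeloid cells. They took 57718 and 56983 CPM of library totals there, against 50830 and 50375 CPM in Erythroid cells. Gm24452 had 16708 and 17055 CPM in Myeloid cells, against 14494 and 13999 CPM in Erythroid cells (log2 fold change 0.24 ± 0.05, edgeR adjusted p = 0.00547). Its neighbour Gm25894 had 13450 and 13476 CPM in Myeloid cells, against 17574 and 17046 CPM in Erythroid cells (log2 fold change -0.36 ± 0.04, edgeR adjusted p = 0.000232). Both differences were larger than the spread of either pair, although no Snhg1 snoRNA was called higher without Erythroid library 1 or without Myeloid library 1. Rack1 held the higher Gm25296 (0.26) and the lower Snord95 (-0.56), Eif4a2 the higher Gm26447 (0.51) and the lower Gm24201 (-1.32), and Nop58 the higher Gm26293 (0.38) and the lower Snord70 (-0.70). Of 51 tested snoRNAs in ribosomal protein genes other than Rpl13a, 1 was higher (1.96%) and 11 were lower (21.6%), with a median of -0.11. The share lower was above the 10.9% of all features but below the 30% of C/D snoRNAs. With library totals 14 of the 51 were higher and 4 lower. Of 4 in Rpl13a, none was higher and 2 were lower, and with library totals 1 and 1. Apart from the listed members, the snoRNAs of these hosts were chosen after their values were seen.

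**Figure D4:**
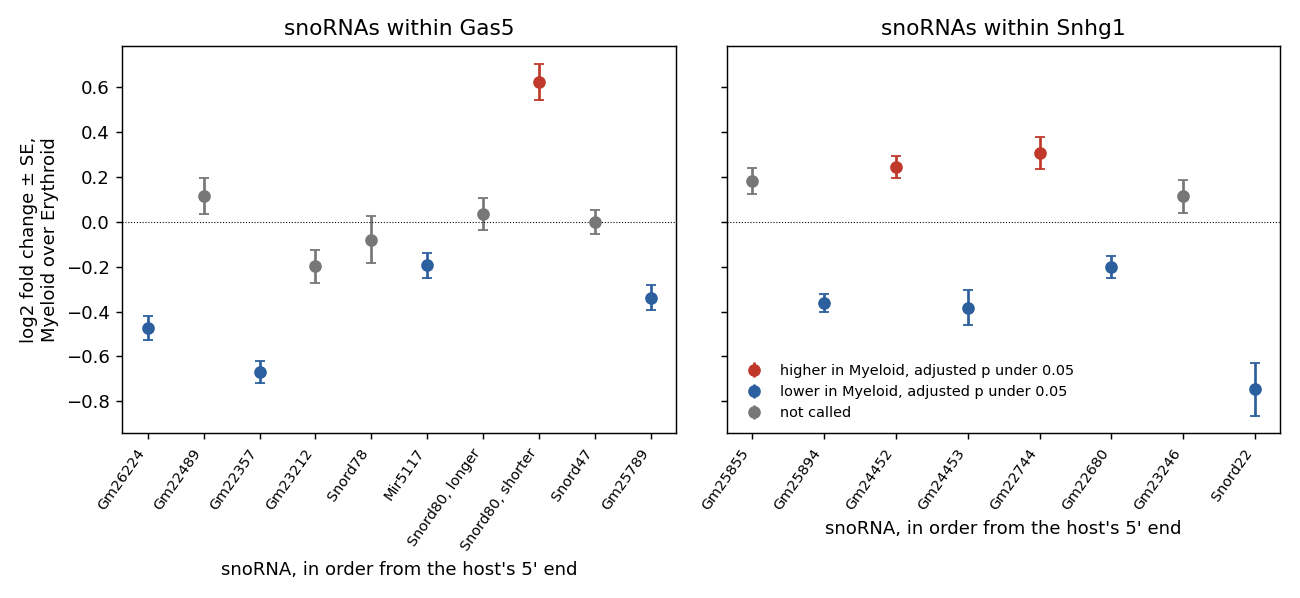
Log2 fold change of Myeloid over Erythroid with its standard error (y axis) for each tested snoRNA within Gas5 and Snhg1, in order from the 5' end of the host (x axis). Red points were higher and blue points lower at an adjusted p of 0.05, and both colours occur within each host.

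Of the 105 H/ACA snoRNAs, 3.81% were higher and 6.67% lower, against 8.01% and 10.9% over all features. The 105 include Rnu73b, which was placed in this class by its name only. Gm25117, in Nap1l1 and the most counted of the 7, had 8031 and 7728 CPM in Myeloid cells, against 11560 and 9519 CPM in Erythroid cells (log2 fold change -0.42 ± 0.10, edgeR adjusted p = 0.0149). Gm26447, in Eif4a2, had 60.1 and 54.0 CPM in Myeloid cells, against 45.3 and 34.9 CPM in Erythroid cells (log2 fold change 0.51 ± 0.15, edgeR adjusted p = 0.0322). The Erythroid pair was again the wider one. Snora28, Gm24233, Snora44 and Gm25291 were also called, with log2 fold changes of 0.41, 0.40, -0.62 and -0.61, and without Myeloid library 2 no H/ACA snoRNA was called in either direction. Snora28 and Gm24233 lost their calls with RLE scaling and when any 1 of the 4 libraries was left out, and Gm26447 was called in 7 of the 17 alternatives it was fitted in. The 2 tested small Cajal body RNAs, which guide modification of snRNAs, did not pass.

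Among the snRNAs, most of the called rises were intervals of U1, which recognises the 5' splice site. Of 24 tested U1 intervals, 8 were higher in Myeloid cells (33.3%, against 8.01% of all features). The median was 0.31, and 1 interval, Rnu1b1, was lower (4.17%, against 10.9%). As 23 of the 24 have similar copies or overlaps, the calls may not be separate results. Gm23804 (chr12:54714218-54714381) had 142 and 174 CPM in Myeloid cells, against 74.1 and 67.2 CPM in Erythroid cells (log2 fold change 1.16 ± 0.16, edgeR adjusted p = 0.000973). Rnu1b2 had 93.1 and 101 CPM in Myeloid cells, against 52.3 and 52.5 CPM in Erythroid cells (log2 fold change 0.89 ± 0.11, edgeR adjusted p = 0.000558). Most U1 intervals are similar copies of each other, and as a group they took 1003 and 1088 CPM of library totals in the Myeloid libraries, against 543 and 544 CPM in the Erythroid libraries. Between 6 and 8 U1 intervals were higher when any 1 of the 4 libraries was left out, among them Gm22513 (0.95) and Gm22634 (0.79), which were called in all 15 alternatives they were fitted in. The lower call of Rnu1b1 was lost without Myeloid library 1, Erythroid library 1 or Erythroid library 2, and with library totals, among others. U2, which binds the branch point, had 2 intervals higher and 1 lower of 16, with 2470 and 2401 CPM of library totals in Myeloid cells, against 1917 and 1884 CPM in Erythroid cells. The rises of U2 were lost without any of the 3 libraries other than Erythroid library 2. None of the 7 tested U5 and 56 tested U6 intervals passed in either direction. The U6 intervals summed to 52.6 and 54.6 CPM of library totals in Myeloid cells, against 54.3 and 61.3 CPM in Erythroid cells. Of 3 tested U12 intervals, Rnu12, of the minor spliceosome, was higher (0.29), a call lost when any 1 of the 4 libraries was left out.

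Of 7 tested housekeeping RNAs, 1 was higher and none lower. Rny1, a Y RNA, had 55.6 and 66.5 CPM in Myeloid cells, against 32.2 and 40.0 CPM in Erythroid cells (log2 fold change 0.76 ± 0.17, edgeR adjusted p = 0.00920). Its call was lost without Myeloid library 2 (edgeR adjusted p = 0.0842) and without Erythroid library 1 (0.113). Rn7sk, which restrains transcription elongation, the signal recognition particle RNAs Rn7s1 and Rn7s2, Vaultrc5, Rny3 and the telomerase RNA Terc did not pass, and Terc had at most 16 counts in the 4 libraries. Of 67 tested intervals annotated as miRNA but without a miRNA name, none was higher and 9 were lower (13.4%, close to the 10.9% of all features). Among the 9 was Gm27773 (chr16:91944071-91944148) at 23.0 and 17.6 CPM in Myeloid cells, against 62.5 and 61.5 CPM in Erythroid cells (log2 fold change -1.61 ± 0.21, edgeR adjusted p = 0.000558). Gm27773 has 3 similar copies elsewhere, so the origin of its reads is uncertain. The imprinted Dlk1-Gtl2 locus gave almost no reads: its 8 listed snoRNAs together had 6 and 14 counts in Myeloid cells, against 6 and 10 in Erythroid cells, and its 10 listed miRNAs had 4 and 22, against 2 and 0. No member was tested, and a difference was not detectable at this depth.

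The mature difference was then set against that of the progenitors, GMP over MEP, for which 57 features were called (7.61%), 29 higher and 28 lower. The 2 differences share no library, and a contrast of the differences, Myeloid over Erythroid minus GMP over MEP, was called for 69 of 749 features (9.21%), 27 positive (3.60%) and 42 negative (5.61%). Of the 60 features higher in Myeloid cells, 7 were higher and 5 lower in GMP. Of the 82 lower in Myeloid cells, 11 were lower and 10 higher in GMP. The remaining 48 and 61 were not called between the progenitors.

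Snord118 changed side. It had 66.2 and 67.9 CPM in GMP, against 109 and 104 CPM in MEP, so it was lower in GMP (log2 fold change -0.67 ± 0.09, edgeR adjusted p = 0.000537), while it was higher in Myeloid cells. The difference between the contrasts was 1.15 ± 0.12 (edgeR adjusted p = 0.000239). Gm25106, a U2-like interval in Ikzf3, had 29.1 and 27.7 CPM in GMP, against 13.5 and 13.3 CPM in MEP, but 9.83 and 12.1 CPM in Myeloid cells, against 20.6 and 23.6 CPM in Erythroid cells. Its difference was -2.09 ± 0.21 (edgeR adjusted p = 0.000182), larger in size than that of the other features named here. Rn7sk had 170 and 144 CPM in GMP, against 66.6 and 67.8 CPM in MEP, and 87.7 and 84.8 CPM in Myeloid cells, against 77.9 and 80.7 CPM in Erythroid cells, a difference of -1.10 ± 0.14 (edgeR adjusted p = 0.000472).

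Other features were close between the progenitors and apart in the mature cells. Snord14a had 26.6 and 25.6 CPM in GMP, against 26.3 and 31.8 CPM in MEP, and its difference of -0.91 ± 0.22 passed (edgeR adjusted p = 0.0275). Gm24148 had 86.9 and 95.5 CPM in GMP, against 104 and 108 CPM in MEP, with a difference of 1.10 ± 0.12 (edgeR adjusted p = 0.000399). The count of such differences moved with the fit: 22 without Myeloid library 1, 24 without Erythroid library 1, 28 with RLE scaling and 7 with copies and overlaps left out, against 76 without Erythroid library 2, 85 with DESeq2, 91 with library totals and 117 with miRNAs left out.

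**Figure D5:**
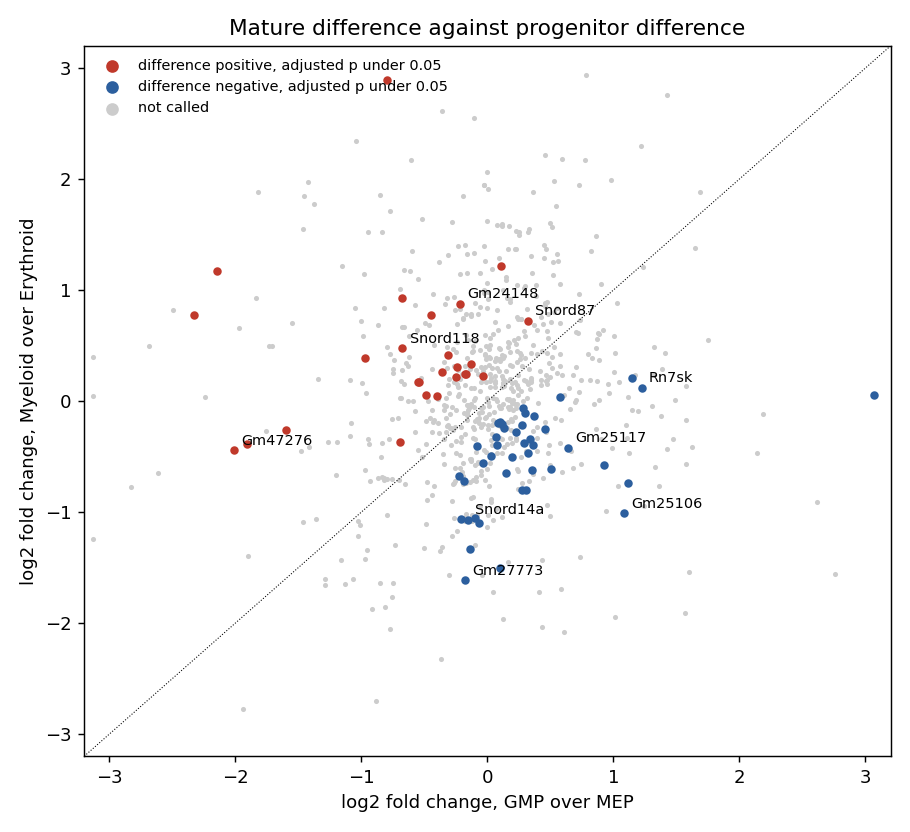
Log2 fold change of Myeloid over Erythroid (y axis) against GMP over MEP (x axis) for the tested features. Red and blue points are the 27 positive and 42 negative differences between the contrasts at an adjusted p of 0.05, and 14 features lie outside the axes. Snord118 lies above the diagonal with a fall in GMP, and Gm25106 lies below it with a rise in GMP.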

How the data were processed

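Small RNA from sorted mouse bone marrow cells was extracted with Trizol, made into libraries with a small RNA kit, selected on a gel for inserts of snoRNA length and sequenced on a NovaSeq, per the labels' protocols. Trimmomatic 0.38, Bowtie2 2.3.4.1 and GRCm38 are named in the submitters' processing notes; parameters, counting program, annotation and strand use are not given in the sources used here. The deposited files hold raw counts per interval, no listed count is below 1, and intervals missing from a library were set to 0. Total counts ran from 8197458 to 41799906 over the 16 libraries, and 89.0% to 93.2% of values were even, so 1 read pair may count as 2. With no molecular identifiers, counting precision covers sampling of reads only.

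Intervals were named by exact coordinates in GENCODE M21, and snoRNAs without a telling name were classed by their boxes. Similar copies (at least 90% identity over 90% of length) were found with blastn 2.17.0. Differences were fitted with edgeR 4.0.16 in R 4.3.3 (filterByExpr with a minimum count of 10, TMM, quasi-likelihood, 1 mean per population over all 16 libraries, 8 residual degrees of freedom), with Benjamini-Hochberg adjustment over 749 features; SE is the log2 fold change over the square root of F. A simulation of 695 features gave every feature the same dispersion. On it the fit called 67 of 92 changes of 1 log2 unit, 89 of 94 of 2 units and 4 of 509 unchanged features. The simulation held no gap within a pair like that of the Erythroid miRNAs, so these rates cannot be carried over to the miRNAs.

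The features open to naming were the 12 largest called rises and falls with at least 10 CPM and no overlap between the pairs, the 4 largest in C/D, H/ACA and snRNA classes, the 10 most counted, the tested members of the marker, rRNA-processing, housekeeping and scaRNA lists, and the 6 smallest p-values on each side of the mature minus progenitor difference among features of at least 10 CPM; any other feature was picked with its values in view. The members and lists were chosen with earlier results of these data known. Alternatives covered scaling, filters, DESeq2 1.42.0, limma 3.58.1 voom, fewer populations, halved counts, classes or copies left out, each library left out and the replicate number as a block. No sequence was printed for snoRNAs on chromosome 18. Marker miRNAs, U3 intervals and small Cajal body RNAs not named singly are given by their list's counts. Results on 2 snoRNAs are not reported here.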

Additional observations from a re-analysis of the deposited data

Results flagged for a closer look

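Of the features reported here, 22 had a Myeloid over Erythroid difference that differed from the GMP over MEP difference, by the test of the difference itself in edgeR. The values below are Myeloid over Erythroid minus GMP over MEP, in log2 units, and no explanation was weighed.

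The positive differences included Snord118 (1.15), Gm24148 (1.10) and the interval mmu-mir-3535 that contains it (1.23), the C/D snoRNAs Snord49b (0.72) and Snord87 (0.40) and the H/ACA snoRNA Snora28 (0.73). Gm47276 (1.57) and Gm47281 (1.52), short intervals with 103 similar copies each and listed among the 5S ribosomal RNA intervals, were lower in GMP than in MEP by more than the mature cells differed.

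The negative differences included the C/D snoRNAs Snord14a (-0.91), Gm25878 in Zfas1 (-0.70), Gm23187 in Nop56 (-1.08) and Gm23301 in Rpl17 (-0.39), and 1 of the 10 U3 intervals, Rnu3b4 (-1.03). In this test of the difference the other 9 U3 intervals did not pass, among them an overlapping Rnu3b4 interval with the same value (edgeR adjusted p = 0.0599). Among H/ACA snoRNAs they were Snora44 (-0.97), Gm25117 (-1.06) and Gm25291 (-1.12). The mitochondrial alanine tRNA mt-Ta had -0.95, Rn7sk -1.10, and Gm27773 -1.44. A snoRNA interval annotated under the symbol Mir1949, which overlaps the miRNA entry of that symbol but is not it, had -1.19. The snRNA intervals Gm23744 and Gm25106 had -1.85 and -2.09.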

How the results depend on the processing

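As reported, 142 features were called, 60 higher and 82 lower in Myeloid cells, and 69 mature minus progenitor differences. Leaving out 1 library gave 61 to 182 calls, 14 to 98 higher and 44 to 84 lower, and 22 to 76 differences. Library totals gave 132 higher and 51 lower, voom with quality weights 99 higher, and a fit of the 4 libraries alone 44 calls, 11 higher and 33 lower. With copies and overlaps left out there were 60 calls, 17 higher and 43 lower, and 7 differences. RLE scaling gave 28 differences and leaving out miRNAs 117. The miRNAs alone, chosen after seeing the data, gave 58 calls and 16 lower from fewer features. Of 55 named features that were called, 23 kept the call and direction in all settings they were fitted in. Values with the opposite sign that were past the threshold either as reported or in the alternative were Snord49a 0.15, Snord68 0.15 and Gm23969 0.095 with library totals, and mmu-mir-3535 -0.076 among miRNAs alone (the cause was not tested); sign changes of features past it in neither also occurred. With the replicate block, 139 were called, 54 higher and 85 lower, 135 of them shared. The labels do not say that the numbers pair the libraries, and the 2 pairs' deviations correlated at 0.39 across 157 features. Depth limits the comparison to the 749 of 1885 intervals that passed the low-count filter, which was applied over all 16 libraries. Some tested intervals therefore had few counts in these 4 libraries. Mir183, for example, had 2 and 8 counts in Myeloid cells, against 0 and 0 in Erythroid cells.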
